A study of Mus musculus with 6 samples.

Results

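Immediate early genes are the first genes that a cell transcribes after a stimulus, without waiting for new protein. In neurons, synaptic activity raises calcium, kinases such as CaMK and ERK carry the signal to the nucleus, and CREB and SRF switch these genes on within minutes through their CRE and CArG box sites. Many of the products are transcription factors that drive a later wave of genes for synapses and growth, whereas others, such as Dusp1, feed back on the signal. Most of them also answer growth factors and stress in glia, vessels and tumor cells, while Npas4 and Arc are largely confined to neurons.

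Expression of 10 of these genes (Fos, Fosb, Junb, Egr1, Egr2, Nr4a1, Npas4, Arc, Ier2 and Dusp1) was read from RNA-seq of brain tumors in wild type (WT) and Esm1 knockout (KO) hosts. They were taken by name from the 16729 genes with deposited counts, and all 10 were found. Esm1 encodes Endocan, a proteoglycan secreted by endothelial cells, and the study compared both hosts to learn how Endocan shapes glioblastoma (GBM). All 6 hosts were C57BL/6 mice (C57BL/6J in the study's methods) carrying intracranial tumors of mG7080 cells, a murine GBM gliomasphere culture from a genetic mouse model. The hosts were 3 Esm1 WT mice (WT 1, WT 2 and WT 3) and 3 Esm1 KO mice (KO 1, KO 2 and KO 3), untreated apart from the implant. By the study's methods only female mice were used, and the age ranges in the methods and in the reporting summary differ. Only the host lacked Esm1, since the implanted cells were the same for both groups, and tumors were taken from each mouse when tumors had formed, with no time from implantation given in the labels. Each library holds RNA of a resected tumor piece, which can mix tumor cells and host brain cells. Fewer cells of a type and less RNA per cell therefore cannot be told apart. The labels do not say when the samples were frozen after death or whether an animal had a seizure, and seizures were among the endpoint signs in the study's methods.

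The libraries held 17632070 to 22241832 counts on genes, and the lowest count of any of the 10 genes in any library was 51. Levels are given as CPM, counts scaled to library size with TMM factors. For the deleted gene, Esm1, 25, 21 and 82 reads were counted in the WT libraries, 1 in KO 1, 24 in KO 2 and 4 in KO 3. The library labelled KO 2 thus had as many Esm1 counts as WT 1 and WT 2, and on the first principal component of all genes (86.2% of the variance) it lay at -30.3, among the WT libraries (-81.3 to -14.7), while KO 1 and KO 3 lay at 81.8 and 107.1. The fold changes of the 10 genes and the counts of calls are therefore given with and without KO 2. This choice rests on the same data, since the Esm1 counts of KO 2 were known beforehand. Leaving out the KO library nearest to WT makes it easier for the groups to separate. The p-values and calls without KO 2 are therefore a description and not an independent test of the host genotype. Other fold changes, correlations and orders below are over all 6 libraries unless stated. Xist, the RNA that coats the inactive X chromosome in female cells, had 639, 2.96 and 2.38 CPM in the WT and 1590, 800 and 1102 CPM in the KO libraries, so WT 2 and WT 3 had almost none, although the study's methods name only female hosts. Ddx3y, a gene of the Y chromosome, had 32.1, 40.8 and 61.8 CPM in the WT libraries, 2.73 and 44.8 CPM in KO 1 and KO 2, and none in KO 3. The sex of the implanted cells is not given in the sources used here, the part of host sex in the differences was not tested, and the counts of calls are also given without WT 2 and WT 3. The 10 glioma and stem cell markers summed to 2106 to 3330 CPM in the WT libraries, 538 in KO 1, 2445 in KO 2 and 327 in KO 3. The 16 neuron markers summed to 1774 to 5487 CPM in the WT libraries, 11451 in KO 1, 4119 in KO 2 and 13964 in KO 3. All 26 markers were above 0 in every library, and the neuron sum was highest in the libraries with the least glioma marker RNA. The lowest count was that of Cdk1 in KO 3, with 7 counts against 775, 1342 and 1647 in the WT libraries. Whether the glioma marker RNA came from tumor or host cells was not tested, so how much tumor each piece held is not known.

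The bases just before the start of 5 genes are shown with matches to the letters of the sites named above. Whether these matches are bound or active was not tested. Npas4 had the largest fold change of the 10 genes, Nr4a1 and Dusp1 had middling ones, and Fos and Egr2 had the smallest. Each line gives 250 bases 5′ to 3′ on the gene's own strand, from RefSeq with build GRCm38.p6, ending at the base before the start. Capitals mark the CRE half-site TGACG on either strand (the full CRE TGACGTCA contains it on both) and the CArG box. The regions are chr19:4989972-4990221 (minus strand) for Npas4, chr15:101266596-101266845 (plus strand) for Nr4a1, chr17:26508473-26508722 (minus strand) for Dusp1, chr12:85473640-85473889 (plus strand) for Fos and chr10:67537619-67537868 (plus strand) for Egr2.
Npas4: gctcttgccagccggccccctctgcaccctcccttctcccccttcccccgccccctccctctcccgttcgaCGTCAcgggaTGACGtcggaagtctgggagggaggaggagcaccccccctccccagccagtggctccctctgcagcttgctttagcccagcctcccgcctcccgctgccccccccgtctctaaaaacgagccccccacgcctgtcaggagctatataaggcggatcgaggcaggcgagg
Nr4a1: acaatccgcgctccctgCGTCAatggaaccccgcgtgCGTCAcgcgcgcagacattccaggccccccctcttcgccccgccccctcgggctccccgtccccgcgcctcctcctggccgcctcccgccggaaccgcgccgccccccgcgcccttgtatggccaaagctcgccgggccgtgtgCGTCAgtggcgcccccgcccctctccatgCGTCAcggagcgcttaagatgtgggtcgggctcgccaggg
Dusp1: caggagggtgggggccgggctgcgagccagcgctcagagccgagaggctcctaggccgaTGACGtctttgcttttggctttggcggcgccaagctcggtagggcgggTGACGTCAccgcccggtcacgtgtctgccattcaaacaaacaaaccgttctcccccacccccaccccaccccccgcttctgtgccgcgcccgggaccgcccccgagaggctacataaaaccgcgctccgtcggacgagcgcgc
Fos: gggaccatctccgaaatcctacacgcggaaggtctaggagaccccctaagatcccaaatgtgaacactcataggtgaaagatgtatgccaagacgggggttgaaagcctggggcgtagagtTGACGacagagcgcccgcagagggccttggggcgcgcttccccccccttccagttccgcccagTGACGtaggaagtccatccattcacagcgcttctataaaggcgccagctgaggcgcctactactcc
Egr2: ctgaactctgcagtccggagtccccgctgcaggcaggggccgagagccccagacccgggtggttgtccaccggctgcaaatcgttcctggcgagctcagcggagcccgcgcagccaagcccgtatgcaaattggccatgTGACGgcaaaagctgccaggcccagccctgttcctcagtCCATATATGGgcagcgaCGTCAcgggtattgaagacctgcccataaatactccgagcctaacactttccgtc
Promoter windows were read for 7 of the 10 genes, 11 windows in all. None was read for Arc, Egr1 and Ier2, so the motif counts below do not cover these genes. A CRE half-site lay in at least 1 window of all 7 genes. Counted by window and not by gene, 17.8% of the 32851 promoter windows used for comparison held it. The Egr2 line above is 1 of its 5 windows, and those starting at 67535249 and 67537316 held no half-site. Npas4 had 2 half-sites, which began 179 and 169 bases before the start, and Nr4a1 had 4. The full CRE was found in Dusp1, 143 bases before its start, and in 1.55% of all windows. Egr2 had a CArG box in 4 of its 5 windows, against 1.47% of all windows. Its windows starting at 67537619, 67537620 and 67537680 overlap and share the same box. The window starting at 67537316 overlaps none of these and holds a different box. The AP-1 motif TGANTCA was found in none of the 7 genes and in 6.75% of all windows. The Egr motif GCGNGGGCG was found in Fosb and Nr4a1 and in 4.7% of all windows. Half-sites were thus present in Npas4, with the largest fold change, and also in Fos and Egr2, with the smallest.

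Over all 6 libraries, 9 of the 10 genes had higher fitted levels in KO than in WT tumors and Ier2 had a lower one, but none passed the test, and 7 of the 9 were lower in KO when scaled to neuron markers, which moved the median of all genes from -0.02 to -1.43. The median log2 fold change of the 10 was 0.90, against -0.02 over all 16166 genes tested. edgeR's quasi-likelihood test called 0 genes of the genome in either direction (0% lower and 0% higher), and no adjusted p was below 0.184. Before adjustment 4385 genes had p under 0.05, 4 of the 10 among them (Junb, Npas4, Nr4a1 and Dusp1). DESeq2 on the same libraries called 757 genes higher and 425 lower, Junb and Npas4 among the higher, while limma-voom called 0. CPM of the groups did not overlap for Junb, Egr2, Npas4 and Nr4a1, all higher in KO. Among all genes tested, 12.6% were higher in KO without overlap and 14.8% were lower without overlap.

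In the fit without KO 2, 6 of the 10 genes were called higher in KO tumors (Fosb, Junb, Egr1, Npas4, Nr4a1 and Dusp1). Ier2 was called lower, and Fos, Egr2 and Arc did not pass. Here and below, genes are said to rise or fall where a fit called them. Scaled to neuron markers in place of TMM, 5 of those 6 (all but Npas4) had negative values that did not pass, and Ier2 still fell, in a fit that called 70.8% of all genes lower. In the fit with TMM factors and without KO 2, the median log2 fold change of the 10 genes was 1.12, against -0.02 over the 16279 genes tested. The same fit called 24.5% of all genes higher and 28.3% lower, so calls were common across the genome in this comparison. In KO 1 and KO 3, 9 of the genes lay above and Ier2 lay below all 3 WT libraries, whereas 37.2% of all genes were higher and 40.3% lower without overlap. With WT 1, WT 2, KO 1 and KO 3 alone, the set used in the study's own table, none of the 10 genes passed, and the lowest adjusted p among them was 0.0582 (Nr4a1), while 2.87% of all genes were called higher and 13.9% lower. The calls by edgeR's quasi-likelihood test came only in fits without KO 2. In these, leaving out WT 3 as well gave 0 of the 10. With WT 1 left out instead, 8 rose and 1 fell, among 5195 genes called higher and 5532 lower of 16161 tested. With WT 2 left out instead, 6 rose, among 2461 genes called higher and 3473 lower of 16185 tested. With KO 1 or KO 3 left out instead, a single KO library remained, and the median of the 10 was 1.16 or 1.07. The direction of all 10 genes was the same in the 3 fits. With WT 2 and WT 3 left out, an alternative added after the data had been seen in which WT 1 alone stood for its group, 0 of the 10 passed and their median was 0.45 with KO 2. Without KO 2 as well, Egr1 (0.76 ± 0.17), Nr4a1 (0.65 ± 0.16) and Dusp1 (0.73 ± 0.16) rose, with adjusted p of 0.0466, 0.0496 and 0.0444, the median of the 10 was 0.69, and 6.91% of all genes were called higher and 12.5% lower.

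**Figure D1:**
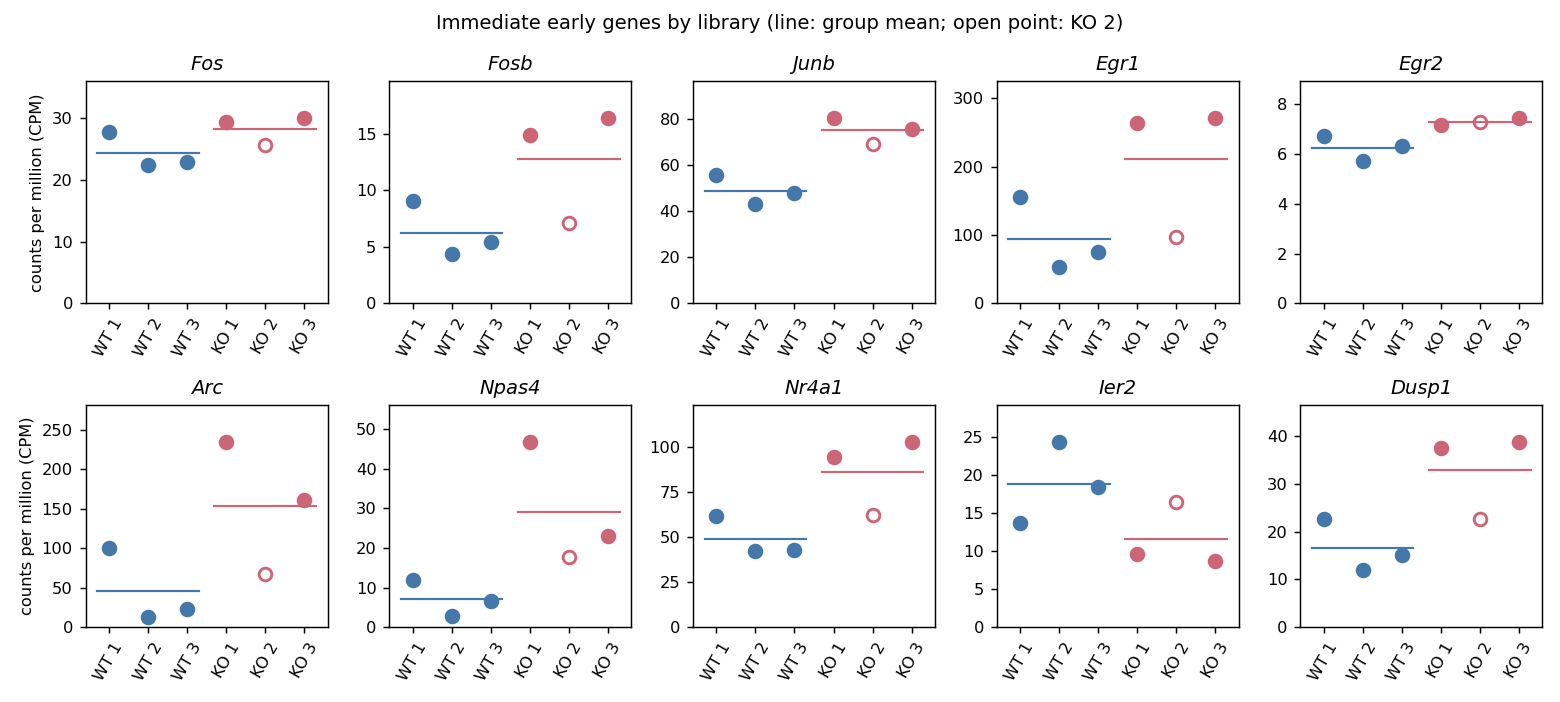
Each panel plots CPM (vertical axis, from 0) of 1 gene in the 3 WT libraries (blue) and the 3 KO libraries (red, KO 2 as an open point), with a line at each group mean. KO 1 and KO 3 lie above the WT libraries for 9 genes and below them for Ier2, and KO 2 lies within the WT range for 6 of the 10 genes.

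Fos, Fosb and Junb encode subunits of the AP-1 transcription factor, in which a Fos protein pairs with a Jun protein. Fos had 27.8, 22.4 and 22.9 CPM in the WT and 29.3, 25.6 and 30.0 CPM in the KO libraries, always listed from replicate 1 to 3. The gene best known as a marker of active neurons was thus nearly level across the tumors, with KO 2 below WT 1. Its log2 fold change was 0.22 ± 0.16 (SE, adjusted p = 0.336) over all 6 and 0.30 ± 0.16 (adjusted p = 0.159) without KO 2.

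Fosb, which is induced with Fos and whose spliced form ΔFosB accumulates after repeated activity, had 9.04, 4.34 and 5.41 CPM in the WT and 14.9, 7.1 and 16.4 CPM in the KO libraries. KO 1 and KO 3 were well above WT, and KO 2 lay between WT 1 and WT 3. Its log2 fold change was 1.03 ± 0.43 (adjusted p = 0.184) over all 6 and 1.33 ± 0.35 (adjusted p = 0.0245) without KO 2.

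Junb, a Jun subunit that often restrains Jun, had 55.6, 43.1 and 47.8 CPM in the WT and 80.2, 69.2 and 75.6 CPM in the KO libraries. All 3 KO libraries, KO 2 included, stood above all WT libraries, and the spread within each group was small (48.8 ± 6.32 CPM in WT and 75.0 ± 5.55 CPM in KO, SD, n = 3). Its log2 fold change was 0.62 ± 0.14 over all 6, with the lowest unadjusted p of the 10 genes (0.00495, adjusted p = 0.184), and 0.69 ± 0.16 without KO 2 (adjusted p = 0.0179).

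Egr1 and Egr2 encode zinc finger factors, of which Egr1 supports lasting synaptic plasticity and Egr2 is also a regulator of myelinating Schwann cells. Egr1 had 156, 53.1 and 76.0 CPM in the WT and 264, 97.7 and 271 CPM in the KO libraries. Its WT libraries ranged almost as widely as the groups differed, and KO 2 lay between WT 1 and WT 3. The log2 fold change was 1.15 ± 0.54 (adjusted p = 0.197) over all 6 and 1.5 ± 0.45 (adjusted p = 0.0355) without KO 2.

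Egr2 had 6.73, 5.71 and 6.3 CPM in the WT and 7.15, 7.27 and 7.43 CPM in the KO libraries. The groups did not overlap, yet the difference was small, at a log2 fold change of 0.22 ± 0.19 (adjusted p = 0.405) over all 6 and 0.24 ± 0.22 (adjusted p = 0.374) without KO 2. Scaled to total counts alone and without KO 2, it was -0.03 ± 0.22, so its direction rested on the scaling. A non-coding gene without counts here overlaps Egr2, and the strand setting of the counting is not given in the sources used here.

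Nr4a1 encodes an orphan nuclear receptor that limits excitatory synapses in active neurons and is also induced in macrophages and endothelium. It had 61.9, 42.6 and 42.8 CPM in the WT and 94.4, 62.3 and 103 CPM in the KO libraries. No KO library fell below a WT library, but KO 2 and WT 1 were nearly equal. The log2 fold change was 0.82 ± 0.25 (adjusted p = 0.184) over all 6 and 1.02 ± 0.21 (adjusted p = 0.0147) without KO 2, the lowest adjusted p of the 10 genes.

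Npas4 encodes a factor that answers calcium entry in neurons and adjusts inhibitory synapses. It had 11.9, 2.7 and 6.5 CPM in the WT and 46.8, 17.6 and 23.1 CPM in the KO libraries, from 253, 51 and 131 counts and 825, 399 and 445 counts. The exact 95% counting interval of its smallest count was 38 to 67.1, which covers counting error only. All KO libraries were above all WT libraries, KO 2 stood at 2.5 times the WT mean, and KO 1 was at 2.03 times KO 3. Npas4 had the largest fitted difference of the 10 genes, with a log2 fold change of 2.05 ± 0.63 (adjusted p = 0.184) over all 6 and 2.32 ± 0.62 (adjusted p = 0.0259) without KO 2.

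Arc encodes a synaptic protein whose mRNA travels to active dendrites and which removes AMPA receptors. It had 99.8, 12.7 and 23.5 CPM in the WT and 235, 67.3 and 161 CPM in the KO libraries. WT 1 had more than KO 2, and the WT libraries spread more widely than for any other of the 10 genes relative to their mean (45.3 ± 47.5 CPM, SD, n = 3). The mean of KO 1 and KO 3 was 4.36 times that of WT, yet with this spread the log2 fold change of 1.77 ± 0.86 over all 6 (adjusted p = 0.202) and 2.13 ± 0.84 without KO 2 (adjusted p = 0.0754) passed in neither fit. DESeq2, limma-voom and edgeR's exact test, run without KO 2 after the data had been seen, each called Arc higher.

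Dusp1 encodes a phosphatase that switches off MAP kinases and thereby the signal that induces it. It had 22.7, 12 and 15.2 CPM in the WT and 37.6, 22.7 and 38.8 CPM in the KO libraries. KO 2 and WT 1 had nearly the same level, and KO 1 and KO 3 were above the rest. The log2 fold change was 0.99 ± 0.32 (adjusted p = 0.184) over all 6 and 1.21 ± 0.29 (adjusted p = 0.0197) without KO 2.

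Ier2, a nuclear protein induced by growth factors in many cell types, moved against the others. It had 13.7, 24.4 and 18.4 CPM in the WT and 9.65, 16.5 and 8.67 CPM in the KO libraries. KO 1 and KO 3 were the lowest, KO 2 lay between WT 1 and WT 3, and the WT library with the lowest Arc, Npas4 and Egr1 (WT 2) had the highest Ier2. The log2 fold change was -0.70 ± 0.34 (adjusted p = 0.202) over all 6 and -1.02 ± 0.27 (adjusted p = 0.0256) without KO 2.

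**Figure D2:**
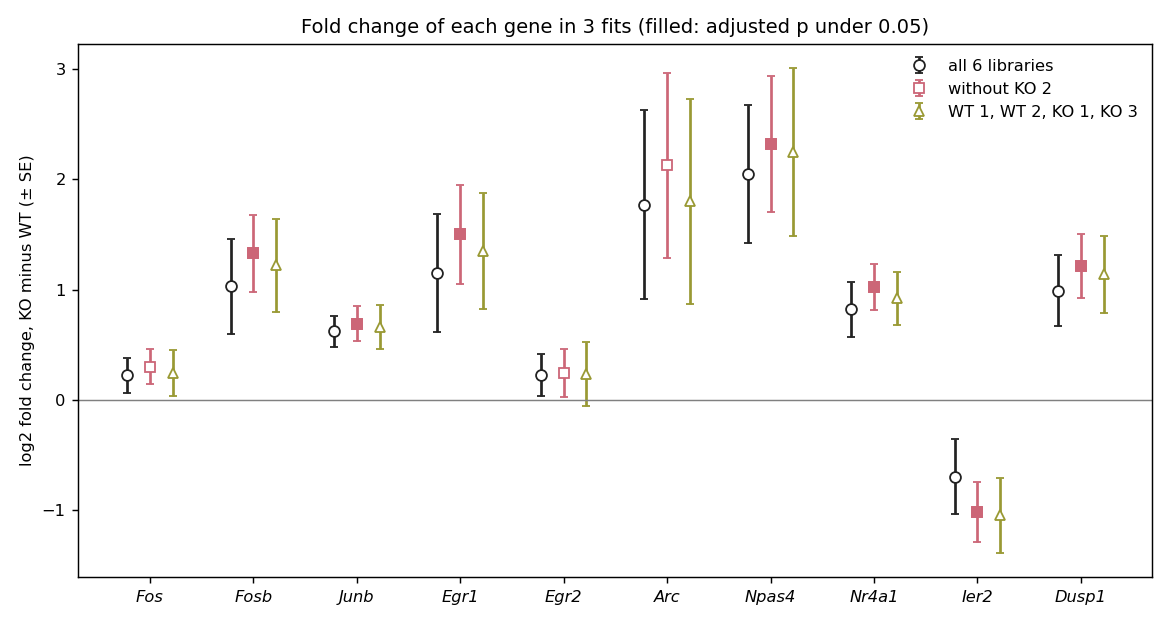
Log2 fold change, KO minus WT, with its SE (vertical axis) for each gene in the fits of all 6 libraries (circles), without KO 2 (squares) and of WT 1, WT 2, KO 1 and KO 3 (triangles), filled where adjusted p was under 0.05. Only squares are filled, for 6 genes above 0 and for Ier2 below 0, and Npas4 and Arc have the largest values and the widest errors.

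Inside each host group, most of the genes also ranked the libraries alike. Among the WT libraries WT 1 was the highest and WT 2 the lowest for 9 of the 10 genes, with Ier2 in the opposite order, and KO 2 was the lowest KO library for 8. Across the 6 libraries, the correlation of each gene's log2 CPM with the mean of the other 9 ran from 0.90 (Egr2) to 0.99 (Dusp1), except for Ier2 at -0.97. These points share library, tissue composition and scaling and include the difference between the groups, so the values are a description. The share of all genes with values as high is not given here, and the first principal component held 86.2% of the variance of all genes. The mean of the 10, each centred on its own average, was 0.07, -0.82 and -0.51 in WT 1, WT 2 and WT 3 and 0.69, 0.03 and 0.55 in KO 1, KO 2 and KO 3 on the log2 scale. The 5 genes outside the lists whose log2 CPM was most like that mean were Kif5a, Cldn10, Slc43a2, Zfp612 and Dnajb2, with Pearson's r of 0.9978 to 0.9991 over 6 libraries among 12866 genes ranked. Kif5a, a kinesin heavy chain of neurons, had 2240, 798 and 1180 CPM in the WT and 4400, 2200 and 3680 CPM in the KO libraries. The other immediate early factors and the neuron markers are on the lists and were left out of this ranking. It therefore cannot show whether their profiles were less or more alike.

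Ratios of counts within a library do not depend on the scaling, but they can depend on the mix of cells in the piece. The 5 ratios given here were chosen after the values had been seen. Npas4 over Fos was 0.429, 0.121 and 0.284 in the WT and 1.6, 0.688 and 0.771 in the KO libraries, and the groups did not overlap. Arc over Fos was 3.59, 0.567 and 1.03 in the WT and 8.02, 2.63 and 5.37 in the KO libraries, with KO 2 below WT 1. Junb over Ier2 was 4.04, 1.76 and 2.6 in the WT and 8.31, 4.2 and 8.71 in the KO libraries, again without overlap. Egr1 over Egr2 was 23.1, 9.31 and 12.1 in the WT and 37.0, 13.4 and 36.5 in the KO libraries, and Fosb over Fos was 0.325, 0.194 and 0.236 in the WT and 0.51, 0.278 and 0.548 in the KO libraries. In both of these KO 2 lay below WT 1, so 2 of the 5 ratios separated the groups. Junb over Ier2 pairs a gene that was higher in KO with the only lower one. Ratios of other gene pairs were not computed, so no share stands beside this count.

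Neuron RNA moved with these genes, as the marker sums above show, and its part in the fold changes was not tested. All 16 neuron markers had a higher fitted level in KO over all 6 libraries (0 passed the test, median log2 fold change 1.43), with Slc17a7 the highest at 1.98, and 14 of 16 rose without KO 2 (median 1.81). Both medians lie above those of the 10 immediate early genes. The 10 glioma and stem cell markers had lower fitted levels in KO over all 6 libraries (0 passed, median -1.39, Nes at -2.07 to Sox2 at -0.70), and all 10 fell without KO 2 (median -2.65). Per 1000 neuron marker counts, Fos had 5.06, 12.6 and 7.55 counts in the WT and 2.56, 6.21 and 2.15 in the KO libraries. Egr1 had 28.4, 30.0 and 25 in the WT and 23.1, 23.7 and 19.4 in the KO libraries, a narrower range than in CPM. Npas4 had 2.17, 1.52 and 2.14 in the WT and 4.09, 4.27 and 1.66 in the KO libraries, with KO 3 among the WT values. Arc had 18.2, 7.15 and 7.75 in the WT and 20.5, 16.3 and 11.5 in the KO libraries, and these groups overlapped. On this scale 8 of the 10 genes, all but Arc and Npas4, had lower fitted levels in KO over all 6 libraries, and the median of the 10 was -0.58 against -1.43 over all genes. Npas4 had a log2 fold change of 0.78 ± 0.62 (adjusted p = 0.318) and Arc one of 0.55 ± 0.61 (adjusted p = 0.467). Without KO 2, Fos (-1.84 ± 0.77, adjusted p = 0.0265), Egr2 (-1.90 ± 0.77, adjusted p = 0.0218) and Ier2 (-3.34 ± 0.83, adjusted p = 0.000317) passed as lower relative to neuron markers and none of the 10 passed as higher. The same fit called 70.8% of all genes lower and 0.00614% higher, with a median of -2.22 over all genes. Because this scaling lowered all genes, the negative values of 7 genes that were higher in CPM are no result particular to them, and the median of the 10 stayed above that of all genes.

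**Figure D3:**
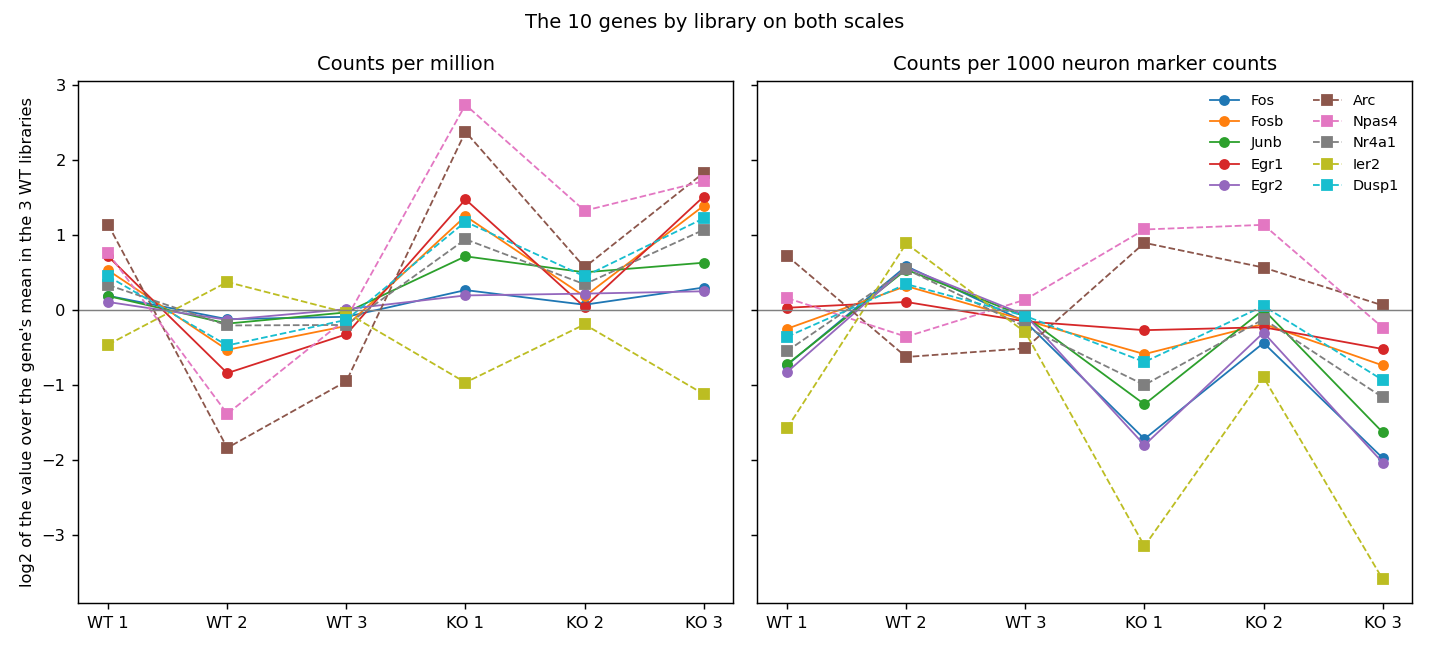
The vertical axis gives log2 of each gene's value over its own mean in the 3 WT libraries, as CPM (left) and as counts per 1000 neuron marker counts (right), across the 6 libraries. On the left 9 genes stand above 0 in KO 1 and KO 3, and on the right only Npas4 and Arc stand above 0 in KO 1, while Ier2 has the lowest values in KO 1 and KO 3 on both sides.

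Markers of other cell types moved in their own ways. Mature oligodendrocyte markers summed to 1351 to 3312 CPM in the WT libraries and 7454, 3181 and 3850 CPM in KO 1, KO 2 and KO 3, and astrocyte markers to 3293 to 4246 CPM in WT and 4636 to 6746 CPM in KO. Over all 6 libraries, none of the 8 mature oligodendrocyte markers passed (Cnp the lowest, at a log2 fold change of 0.33), nor did any of the 8 astrocyte markers (Gfap at -1.39 to Slc1a2 at 1.83). Microglia and macrophage markers, of which Cd68 was the lowest at -1.17 and P2ry12 the highest at 0.94, summed to 836 to 904 CPM in WT and 663, 1136 and 596 CPM in the KO libraries. Endothelial markers summed to 206 to 255 CPM in WT and 212 to 293 CPM in KO, from Kdr at -0.51 to Flt1 at 0.64. Without KO 2, 2 of the mature oligodendrocyte markers rose, 5 astrocyte markers rose and 1 fell, 1 microglia and macrophage marker rose and 4 fell, and 3 of the 10 endothelial markers rose, whereas over all 6 libraries 0 passed in any of these lists. Alas2, the only red blood cell marker in the file, stood at -0.58. None of the markers in these lists was at 0 in any library, and their part in the differences of the immediate early genes was not tested.

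The other immediate early transcription factors split by gene. Of 24 tested, 0 passed over all 6 libraries (median log2 fold change 0.23), and without KO 2, 8 rose and 4 fell (median 0.30). Egr3, a close relative of Egr1, had 67.7, 16.8 and 39.5 CPM in the WT and 180, 44.5 and 209 CPM in the KO libraries, with KO 2 just above WT 3. It rose by a log2 fold change of 2.24 ± 0.54 without KO 2 (adjusted p = 0.0204) and stood at 1.8 ± 0.72 over all 6 (adjusted p = 0.184). Egr4 (2.10), Nr4a3 (1.66), Per1 (1.34), Fosl2 (1.05), Ier5 (0.82), Srf (0.54) and Jund (0.43) rose as well without KO 2. Those that fell were Maff, Atf3, Btg2 and Jun. Maff, a small Maf factor induced by stress and inflammation, had 5.89, 12 and 12.4 CPM in the WT and 1.59, 7.32 and 1.19 CPM in the KO libraries. KO 2 lay within the WT range and the other KO libraries far below it, at a log2 fold change of -2.83 ± 0.44 without KO 2 (adjusted p = 0.00896) and -1.57 ± 0.76 over all 6 (adjusted p = 0.201). Atf3, a stress-induced factor, fell by 2.58 on the log2 scale, Btg2, an antiproliferative target of p53, fell by 1.62, and Jun, the partner of Fos, fell by 0.43. Maff, Atf3 and Btg2 also passed with WT 1, WT 2, KO 1 and KO 3 alone, where none of the 10 genes did (adjusted p = 0.0358, 0.043 and 0.0343).

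Genes of the list named later activity response genes mostly had higher fitted levels in KO. Of 20 tested, 0 passed over all 6 libraries (median log2 fold change 0.99), and 8 rose and 0 fell without KO 2 (median 1.26). Nrn1, a secreted growth factor of neurites, had 65.1, 12.4 and 36.1 CPM in the WT and 159, 51.0 and 222 CPM in the KO libraries, with KO 2 between WT 3 and WT 1. Its log2 fold change was 1.92 ± 0.74 over all 6 (adjusted p = 0.184) and 2.34 ± 0.63 without KO 2 (adjusted p = 0.027). Nptx2, a synaptic pentraxin (2.23), Inhba, a subunit of activin (1.95), Sst, the interneuron peptide (1.59), Homer1, a scaffold of glutamate receptors (1.47), Ctgf (1.30), Dnajb5 (1.22) and the kinase Plk2 (0.94) rose too without KO 2. Cyr61, a matrix protein, was the lowest of this list over all 6, at -0.59 ± 0.34 (adjusted p = 0.249).

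The signaling that leads from synapse to nucleus and the inhibitors that end it stood apart in their counts. Of 28 receptors, channels, kinases and coactivators, 0 passed over all 6 libraries (median 1.02), and 24 rose and 1 fell without KO 2 (median 1.31). Camk2a, the main kinase of excitatory synapses, had the highest log2 fold change over all 6 (1.68 ± 0.52, adjusted p = 0.184) and Nfatc4 the lowest (-0.94 ± 0.48, adjusted p = 0.214). Without KO 2, Camk2a was at 2.00 ± 0.43 (adjusted p = 0.0162) and Nfatc4 at -0.82 ± 0.54 (adjusted p = 0.242). Of 17 feedback inhibitors, 0 passed over all 6 (median -0.14), and 2 rose and 6 fell without KO 2 (median -0.24). Over all 6, Spry1, an inhibitor of receptor tyrosine kinase signaling, was the lowest of these at -1.75 ± 0.52 (adjusted p = 0.184). Dusp14 was the highest at 1.24 ± 0.65 (adjusted p = 0.22), while Dusp1 itself stood with the higher genes. Without KO 2, Spry1 was at -2.40 ± 0.35 (adjusted p = 0.00833) and Dusp14 at 1.63 ± 0.52 (adjusted p = 0.0431). Of 13 heat shock and stress genes, 0 passed over all 6 (median -0.20), and 5 fell and 0 rose without KO 2 (median -0.12). Over all 6, Hmox1, which degrades heme, was the lowest at -1.60 ± 0.98 (adjusted p = 0.27). The chaperone Hspa1a was the highest at 0.59 ± 0.47 (adjusted p = 0.368). Without KO 2, Hmox1 was at -3.34 ± 0.64 (adjusted p = 0.0126) and Hspa1a at 0.91 ± 0.40 (adjusted p = 0.0971).

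**Figure D4:**
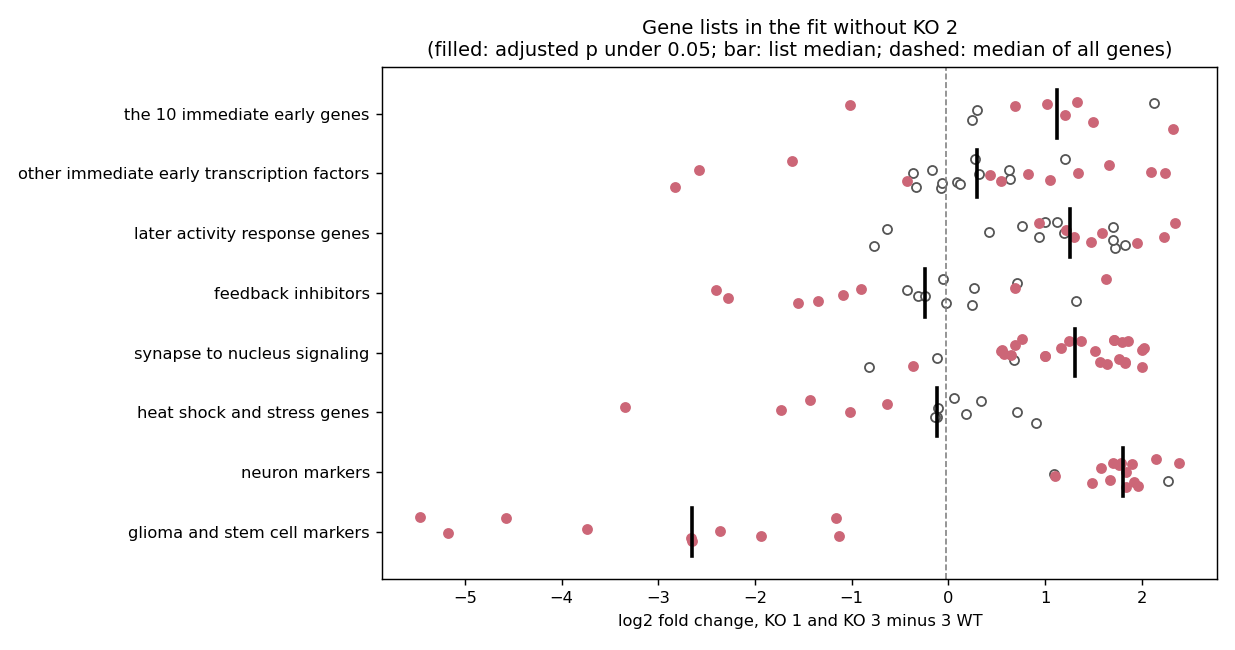
The horizontal axis gives the log2 fold change of KO 1 and KO 3 over the 3 WT libraries for every tested gene of 8 lists, filled where adjusted p was under 0.05, with a bar at each list's median and a dashed line at the median of all genes (-0.02). The bar of the 10 immediate early genes (1.12) lies near that of the later activity response genes (1.26) and below that of the neuron markers (1.81), and the bar of the glioma markers is at -2.65.

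Levels of different genes were compared per transcript length, in the authors' FPKM. In WT tumors the order by median ran from Junb (27.6), Egr1 (26.3), Nr4a1 (18.4), Ier2 (12.9), Fos (11.6), Dusp1 (8.34) and Arc (8.18) to Egr2 (2.26), Npas4 (2.11) and Fosb (1.52). Neighbours in that order overlapped in range except Nr4a1 over Ier2 and Arc over Egr2. In KO tumors the order by median was Egr1 (76.4), Arc (45.5), Junb (39.9), Nr4a1 (34.9), Dusp1 (17.3), Fos (12.8), Npas4 (6.11), Ier2 (5.8), Fosb (3.62) and Egr2 (2.21), and neighbours overlapped except Nr4a1 over Dusp1 and Ier2 over Fosb. Arc, the seventh in WT tumors, was the second in KO tumors, and Ier2 moved from the fourth to the eighth place. FPKM is scaled to total reads without TMM factors, and on this scale Fos (11.5 to 13.8 in WT and 12.4 to 13.0 in KO) and Egr2 (2.07 to 2.35 in WT and 2.17 to 2.61 in KO) overlapped between the groups.

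**Figure D5:**
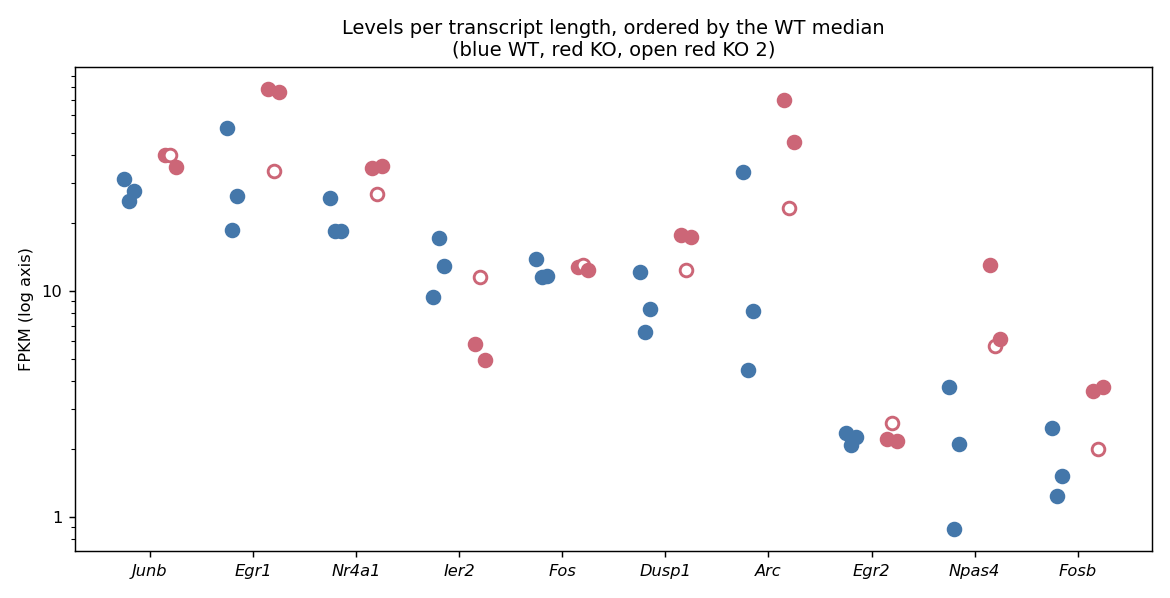
FPKM (vertical log axis) of the 10 genes in the 3 WT (blue) and 3 KO libraries (red, KO 2 open), in the order of the WT medians. Junb, Egr1 and Nr4a1 lead in WT tumors, Arc spans from 4.45 to 70.3 over the 6 libraries, and Egr2 and Fos stay within a narrow band.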

How the data were processed

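Tumor RNA of 3 WT and 3 Esm1 KO hosts was sequenced, and groups followed the sample labels. The deposited counts are whole reads per gene, which the authors made with HTSeq on RefSeq genes and did not normalize (mm10 in the labels, hg38 in the paper, CASAVA 1.8.2 and edgeR in the submitters' processing notes). FPKM per gene and library were also computed by the authors. The authors' 6 normalized count columns, 3 single-library comparison columns, fold changes, p-values and false discovery rates were not used.

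All genes were tested with edgeR 4.0.16 under R 4.3.3 (filterByExpr with minimum count 10 and minimum total 15, TMM, quasi-likelihood test, Benjamini-Hochberg adjustment over all genes tested), and a gene was called at adjusted p under 0.05. A positive fold change is higher in KO, and tests were two-sided. The fit was run on simulated data with planted fold changes and the same spread setting for every gene. Those data lacked the differences between libraries seen here, so the run checks the code and not the fit's power on these libraries. Alternatives were other scalings and filters, each library left out, the replicate number as a block, DESeq2 1.42.0, limma-voom (limma 3.58.1), edgeR's exact test and scaling to neuron markers. Fits without KO 2 by other tools, by other scalings or with a further library left out, and fits without WT 2 and WT 3, were added after the data had been seen.

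The 10 genes and the 13 gene lists were chosen with earlier results of these data known. Named are the 10 genes, Xist and Ddx3y (chosen after their values were seen), the lowest and highest gene of each other list over all 6 libraries, Esm1, the 5 genes of most alike profile (log2 of CPM plus 0.5, mean CPM of at least 5), and called genes of the lists of other immediate early factors and later response genes. Some items that this rule names are not reported here. Of the listed genes, 5 of 6 red blood cell markers were not analysed here. Nothing in the labels ties replicate numbers to litters or days, and no pair of libraries agreed within counting noise (lowest chi-square per gene 22.3). Coordinates and promoter sequences are from RefSeq (GRCm38.p6), matched by symbol. Tables were made with Python 3.11.15 and pandas 2.3.3, and figures with matplotlib 3.10.9.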

Additional observations from a re-analysis of the deposited data

How the results depend on the processing

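With one library left out at a time, alone or together with KO 2, or with KO 2 left out under other tools and scalings, 0 to 8 of the 10 genes were called higher and 0 to 1 lower, among 0 to 5195 higher and 0 to 6014 lower genes of all tested, and the median log2 fold change of the 10 ran from 0.74 to 1.36. Without WT 2 and WT 3 it was 0.45 with 0 calls, and with KO 2 left out as well 3 of the 10 genes were called higher, among 1134 higher and 2042 lower genes. All these calls came without KO 2, and with any other single library left out of the 6 the number was 0. Within the set without KO 2, leaving out WT 1 gave 8 higher and 1 lower of the 10 (5195 and 5532 of all genes). Leaving out WT 2 gave 6 higher (2461 higher and 3473 lower of all genes), and leaving out WT 3 gave 0 (464 and 2244 of all genes). With KO 1 or KO 3 left out, a single KO library remained, and the median of the 10 was 1.16 or 1.07. Without KO 2, DESeq2 called 4585 genes higher and 4629 lower, limma-voom 4231 and 4536, edgeR's exact test 4317 and 4639 (7 of the 10 genes higher and 1 lower with each), and RLE scaling 4267 and 4375 (6 and 1). Junb was no longer called without KO 2, leaving 5 of the 10 called higher, under total counts alone, which moved the median of all genes from -0.02 to -0.29 and the genes called to 2526 higher and 6014 lower. Over all 6 libraries, total counts alone moved the median of all genes to -0.17 and that of the 10 genes to 0.72.

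Over all 6 libraries, DESeq2 called 757 genes higher and 425 lower, 2 of the 10 genes among the higher, and edgeR's exact test called 66 higher and 39 lower with none of the 10. WT 1, WT 2, KO 1 and KO 3 alone gave 464 higher and 2244 lower genes. Scaled to neuron markers, the median of the 10 genes was -0.58, and the log2 fold changes of Fos (-1.21), Fosb (-0.48), Junb (-0.78), Egr1 (-0.33), Egr2 (-1.16), Nr4a1 (-0.68) and Dusp1 (-0.46) turned negative, none past the threshold. Egr2 was at -0.03 without KO 2 under total counts alone. The cause of these differences was not tested. Of 290 fold changes of the 10 genes in 29 alternatives, 218 kept direction and side of the threshold, 64 kept direction and came to pass it (62 of them without KO 2), and 8 reversed.

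Deviations from the group means of same-numbered libraries correlated at 0.602, 0.642 and -0.249. WT 1 and WT 2 correlated best with the KO library of their own number, though WT 1 was nearly as close to KO 3 (0.594). WT 3 correlated best with KO 2 (0.308). These few correlations cannot decide whether replicate numbers pair the samples. A replicate block gave 0 called genes, with 8 of the 10 genes at an unadjusted p under 0.05, and a median of 0.90. No other planned filter or scaling over all 6 libraries gave a call. The lowest count of the 10 genes was 51. With KO 2 and a further KO library left out, the lone KO library was assumed to vary like the WT libraries, and WT 1 alone like the KO libraries.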
